A study of Mus musculus with 10 samples.

Results

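Genes that build the cytoskeleton, growth cone and secretory vesicles of young neurons were followed in the forebrains of mouse embryos carrying an active form of FoxO3 and in control forebrains. The list held 32 genes picked by name, and 31 of them had a probe set that the platform's gene table assigns to that gene alone, out of 19938 genes measured in this way. Where a gene had more than 1 such probe set, the one with the highest mean over all arrays was used, which concerned Stmn3 and Ina. Vamp2, which encodes the vesicle SNARE synaptobrevin, is named only together with a second gene and was given no value. No member fell below the limit used to leave out dim genes, so all 31 entered every comparison.

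When a progenitor of the ventricular wall leaves the cell cycle and becomes a neuron, it switches on a shared set of structural genes. Neuron-specific tubulin and microtubule-binding proteins let it migrate and extend an axon, neurofilament proteins fill the axon, and adhesion molecules guide the growth cone. RNA-binding proteins of the Elavl and Celf families stabilize and splice neuronal transcripts, and SNARE proteins, synaptotagmins and granins load and release vesicles. In bulk tissue, the summed signal of such genes is widely read as a measure of how many neurons a sample holds; fewer neurons and less RNA per neuron cannot be told apart in these data.

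The samples were forebrains of 10 embryos at E12.5 on a CD1/NMRI mixed background, with 1 array per embryo. The 5 embryos titled dtg came from transgenic mice and the 5 titled stg from control mice; the labels do not spell out these titles or say which transgenes the controls carry. The series describes a constitutively active FoxO3 allele driven by the CaMKIIa promoter, called forebrain-specific there, and activity of the transgenes was followed by genotyping and a luciferase assay. The litters of 2 dams were used, and since the labels give no embryo's dam, litter entered no fit. Forebrain was cut away from the main part of the thalamus, and the RNA came from a portion of it. The arrays report log2 intensities, with array medians between 5.65 and 5.70 over the 19938 genes, and their number limits the precision. Foxo3 read 6.95, 7.13, 7.10, 6.76 and 6.96 in transgenic embryos 1 to 5 and 6.50, 6.61, 6.59, 6.65 and 6.87 in controls 1 to 5 (log2 difference 0.34 ± 0.085 SE, limma adjusted p = 0.218). Only control 5 overlapped the transgenic values, and whether the probes detect the transgene is not known.

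Control embryo 5 stood apart from the other arrays, with a mean Pearson correlation across genes of 0.985 to them, against 0.992 to 0.993 for each of the other 9. The group differences below are therefore given with and without it. The labelled tissue was checked against forebrain markers. In control embryo 5 the dorsal forebrain genes Emx1 and Emx2 read 7.90 and 8.08, higher than in every other array. The ventral forebrain genes Dlx1, Dlx2 and Gsx2 read 4.82, 5.11 and 4.51 there, lower than in every other array. Dlx1 in controls 1 to 4 read 9.37, 9.38, 6.86 and 8.98, so that control 3 was also low.

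RefSeq promoters (build GRCm38.p6, 250 bases before to 50 after the annotated start) were available for 21 of the 32 genes, with 41 windows in all, and were searched on both strands because the members varied together over the arrays. The RE1 element, bound by the repressor REST that keeps many neuronal genes silent outside neurons, was searched as CAGCACCNNGGACAGC with at most 2 mismatches. It was found in 1 member, Syn1, and in 0.773% of all 32851 promoter windows; its first base lay at position -230 from the start. The FOXO core GTAAACA was found in 1 of 7 windows of Celf3, which is 2.44% of the member windows against 3.65% of all. The E-box CAGCTG, a site type for proneural bHLH factors, was found in windows of 8 members, namely Celf3, Chga, Elavl2, Elavl3, Elavl4, Ina, Stx1a and Syt1, or 31.7% of member windows against 16.3% of all. The E-box CAGATG was found in 6 members, Celf3, Elavl4, L1cam, Map1b, Rtn1 and Stmn3, or 26.8% of member windows against 17.2%. Windows of 1 gene overlap, so these shares count some sites more than once. By gene, the FOXO core was found in 4.76% of the 21 members against 4.05% of all genes, and RE1 in 4.76% against 0.903%. The shares by gene were 38.1% against 18.3% for CAGCTG and 28.6% against 19.2% for CAGATG. A match of letters is neither a bound site nor a cause.
The upstream 250 bases of 4 members are shown, 1 for each motif, with the matches in capitals. They lie at chrX:20920919-20921168 (minus strand) for Syn1, chr3:94482472-94482721 (plus) for Celf3, chr19:47014431-47014680 (plus) for Ina and chr13:99516603-99516852 (minus) for Map1b.
Syn1: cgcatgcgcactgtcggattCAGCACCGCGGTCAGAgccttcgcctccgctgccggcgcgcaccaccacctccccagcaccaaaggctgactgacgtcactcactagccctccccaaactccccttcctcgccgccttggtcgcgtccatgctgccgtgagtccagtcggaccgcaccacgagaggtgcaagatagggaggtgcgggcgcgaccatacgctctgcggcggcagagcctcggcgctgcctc
Celf3: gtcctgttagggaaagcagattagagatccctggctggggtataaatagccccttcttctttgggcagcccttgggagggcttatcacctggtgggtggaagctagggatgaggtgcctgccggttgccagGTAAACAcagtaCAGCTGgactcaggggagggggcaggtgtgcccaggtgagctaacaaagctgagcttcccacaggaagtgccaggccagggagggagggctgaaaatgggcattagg
Ina: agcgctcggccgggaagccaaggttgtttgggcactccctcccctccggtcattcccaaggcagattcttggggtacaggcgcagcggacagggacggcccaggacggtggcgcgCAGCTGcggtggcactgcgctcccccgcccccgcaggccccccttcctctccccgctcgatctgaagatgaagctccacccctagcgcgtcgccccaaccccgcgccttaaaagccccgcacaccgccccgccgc
Map1b: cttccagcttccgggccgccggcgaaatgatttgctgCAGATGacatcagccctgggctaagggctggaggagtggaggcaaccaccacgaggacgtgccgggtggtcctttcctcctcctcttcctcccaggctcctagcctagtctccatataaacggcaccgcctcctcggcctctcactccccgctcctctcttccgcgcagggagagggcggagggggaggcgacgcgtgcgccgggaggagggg
In the first the capitals mark the RE1 match, in the second the FOXO core followed by an E-box CAGCTG, in the third an E-box CAGCTG and in the last an E-box CAGATG.

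Transgenic forebrains had higher mean levels than controls for all 31 genes, but no member passed the test. The log2 differences ran from 0.10 for Stx1a to 0.55 for Ina, with a median of 0.28, whereas the median over all genes was -0.0038. In limma, with Benjamini-Hochberg adjustment over all genes and a threshold of 0.05, 0 of 31 members passed, against 0.105% of all genes (0.0652% higher and 0.0401% lower in transgenic embryos), and the smallest adjusted p of a member was 0.678. By the unadjusted p, 0 members lay below 0.05, against 7.58% of all genes, and the exact permutation test (two-sided, smallest possible p 0.00794) gave no member a p below 0.103. The 2 groups overlapped in all 31 members, while 1.6% of all genes had no overlap. Leaving out control embryo 5 lowered the median difference to 0.084, with 27 members higher and 4 lower, and again 0 of 31 passed, against 0.186% of all genes (limma adjusted p at least 0.811; 0 below an unadjusted 0.05, against 6.83%). A difference above 0, with no test, was found in 48.1% of all genes with all arrays and in 47.9% without control 5. The members share their arrays and vary together, so 31 higher means are not 31 separate observations. In every member the 95% interval of the difference included 0, with upper limits between 0.26 and 0.68 without control 5.

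**Figure D1:**
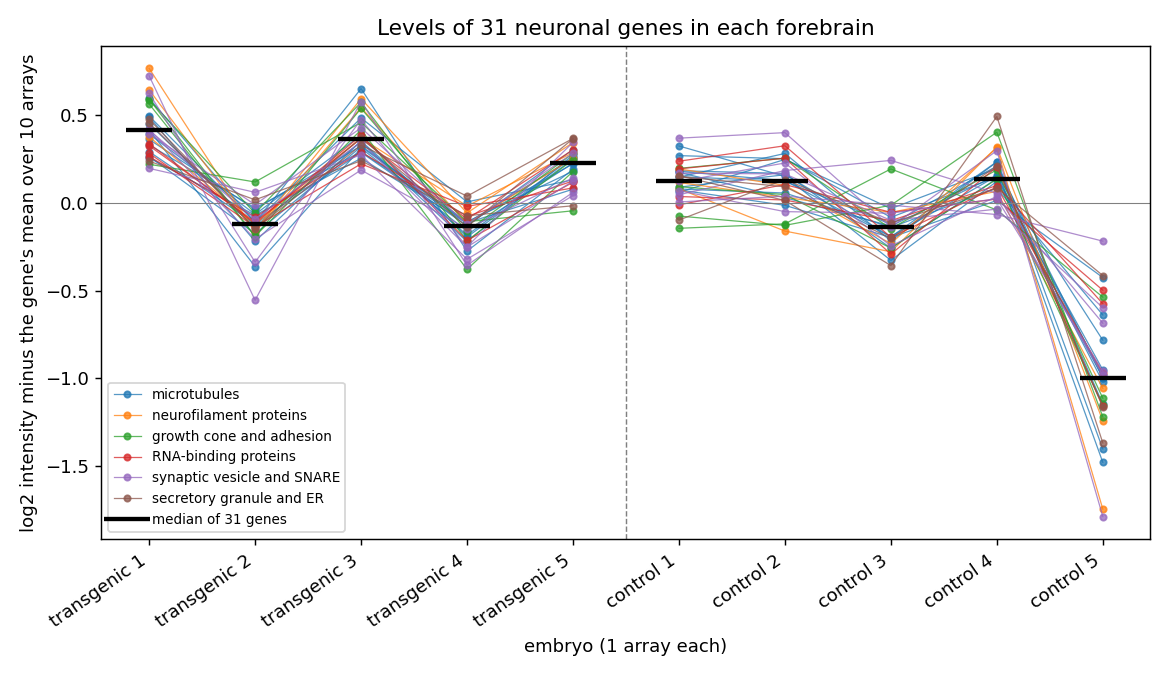
Each line is 1 of the 31 neuronal genes, drawn as its log2 intensity minus its own mean over the 10 arrays (y axis), for each embryo (x axis); colours mark the genes' roles and black bars the median of the 31 genes. Transgenic embryos 1 and 3 have the highest medians, 0.41 and 0.37, and control embryo 5 the lowest, -0.996.

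The pattern that the genes shared lay between embryos within each group. The mean over the members was 8.84, 8.29, 8.80, 8.27 and 8.62 in transgenic embryos 1 to 5 and 8.53, 8.53, 8.28, 8.56 and 7.44 in controls 1 to 5. Transgenic embryos 1, 3 and 5 were thus the highest arrays, transgenic embryos 2 and 4 lay beside control 3, and control 5 was the lowest. The group means were 8.56 ± 0.28 (SD, n = 5) in transgenic and 8.27 ± 0.48 (n = 5) in control embryos, or 8.48 ± 0.13 (n = 4) in controls without embryo 5. In all 31 members both transgenic embryos 1 and 3 read above both transgenic embryos 2 and 4, and in 29 members the highest array was transgenic embryo 1 or 3. The shares of all genes with these orders are not given here. Since the members vary together, these counts are not separate observations. Control 5 was the lowest array in 30 of 31 members, against 17.1% of all genes; the exception was Stx1a, lowest in transgenic embryo 4. The members varied more than genes in general, with a median within-group SD, as moderated by limma, of 0.34 against 0.12 for all genes, and of 0.20 against 0.11 without control 5. They were also brighter than the array medians of 5.65 to 5.70, and genes of like level were not compared.

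Among the 11 microtubule genes, all had higher means in transgenic embryos, with a median log2 difference of 0.28 and 0.084 without control 5, and 0 passed. Map1b encodes a large microtubule-associated protein of growing axons. It read 11.34, 11.01, 11.33, 10.96 and 11.30 in transgenic embryos 1 to 5 and 11.15, 11.06, 10.88, 11.09 and 10.65 in controls. Transgenic embryos 1, 3 and 5 lay above all controls and the other 2 within their range. The log2 difference of Map1b was 0.22 ± 0.11 (SE, n = 5 per group; 95% interval -0.020 to 0.46; limma adjusted p = 0.703; exact permutation p = 0.119), and 0.14 without control 5 (adjusted p = 0.879).

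Mapt, which encodes tau, had the largest difference of the microtubule genes. It read 7.81, 7.10, 7.86, 6.94 and 7.40 in transgenic embryos and 7.39, 7.34, 7.02, 7.45 and 5.81 in controls. Only transgenic embryos 1 and 3 exceeded all controls, and transgenic embryo 4 lay below controls 1 to 4. The log2 difference of Mapt was 0.42 ± 0.30 (limma adjusted p = 0.81; exact permutation p = 0.278, n = 5 per group) and 0.12 ± 0.18 without control 5.

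Stathmins bind tubulin dimers and destabilize microtubules, and 3 neuronal forms were on the list. Stmn3 read 8.96, 8.25, 8.83, 8.29 and 8.73 in transgenic embryos and 8.62, 8.75, 8.26, 8.71 and 7.33 in controls. Transgenic embryos 1 and 3 lay above all controls, and transgenic embryos 2 and 4 beside control 3. Without control 5 the log2 difference of Stmn3 was 0.029 (95% interval -0.31 to 0.37). A second probe set of Stmn3 had a mean of 3.46 over the arrays and a difference of 0.030, and was not used. Stmn2 differed by 0.40 and Stmn4 by 0.29, or by 0.084 and 0.077 without control 5.

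The remaining 6 microtubule genes differed by less than Mapt and Stmn2. Neuron-specific tubulin Tubb3 differed by 0.25, and doublecortin Dcx, needed for neuronal migration, by 0.17. Without control 5 these values were 0.037 and -0.061, so that Dcx turned to the other side of 0. The dendritic microtubule protein Map2 differed by 0.22 and the collapsin response mediators Crmp1, Dpysl3 and Dpysl5, which relay semaphorin signals in the growth cone, by 0.29, 0.31 and 0.22. Without control 5 these 4 differences lay between 0.053 and 0.10.

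The 3 neurofilament genes had a median difference of 0.51, and 0.18 without control 5; 0 passed. Nefl, the light neurofilament subunit, read 7.28, 6.34, 7.05, 6.39 and 6.76 in transgenic embryos and 6.59, 6.35, 6.23, 6.83 and 5.27 in controls. Transgenic embryos 1 and 3 exceeded all controls, and the other 3 lay among controls 1 to 4. The log2 difference of Nefl was 0.51 ± 0.27, a fold of 1.43 (limma adjusted p = 0.72; exact permutation p = 0.151, n = 5 per group). Without control 5 it was 0.27 (95% interval -0.15 to 0.68), the largest such value of the 31 members.

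Ina, which encodes alpha-internexin, an intermediate filament of immature axons, had the largest difference with all arrays. It read 9.90, 9.09, 9.84, 9.19 and 9.59 in transgenic embryos and 9.44, 9.35, 9.02, 9.57 and 7.504 in controls. Transgenic embryos 1, 3 and 5 lay above all controls. Control 5 minus the mean of the other 4 controls was -1.84, a 3.58-fold lower level. The difference of Ina was 0.55 ± 0.34 (limma adjusted p = 0.781; exact permutation p = 0.206, n = 5 per group) and 0.18 ± 0.17 without control 5. Its second probe set gave 0.48 and 0.15. Nefm, the medium subunit, differed by 0.36, and by 0.14 without control 5.

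Among the 4 growth cone and adhesion genes the median difference was 0.34, and 0.16 without control 5; 0 passed. Ncam1, a homophilic neural cell adhesion molecule, read 9.29, 8.64, 9.27, 8.48 and 8.94 in transgenic embryos and 8.79, 8.75, 8.44, 8.83 and 7.54 in controls. Transgenic embryos 1, 3 and 5 lay above all controls, and transgenic embryos 2 and 4 below controls 1, 2 and 4. The difference of Ncam1 was 0.45 ± 0.24 (limma adjusted p = 0.727; exact permutation p = 0.143, n = 5 per group), and 0.22 ± 0.16 without control 5.

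Cntn2, which encodes the axonal glycoprotein TAG-1, departed from the shared order of the embryos. It read 8.14, 8.04, 8.38, 7.81 and 7.87 in transgenic embryos and 7.77, 7.80, 8.11, 7.88 and 7.38 in controls. Control 3, low for most members, was the highest control for Cntn2. The log2 difference was 0.26 ± 0.13 (limma adjusted p = 0.716; exact permutation p = 0.127, n = 5 per group) and 0.16 without control 5.

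L1cam, an adhesion molecule of growing axon bundles, read 8.10, 7.32, 7.93, 7.13 and 7.69 in transgenic embryos and 7.71, 7.76, 7.36, 7.70 and 6.39 in controls. All controls lay below transgenic embryos 1 and 3, and controls 1, 2 and 4 above the other 3. Without control 5 its group means were both 7.63, with a 95% interval of the difference from -0.39 to 0.39. With all arrays the difference was 0.25. Gap43, a growth cone protein that couples membrane signals to actin, differed by 0.41, and by 0.16 without control 5.

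The 4 RNA-binding protein genes had a median difference of 0.21, and 0.070 without control 5; 0 passed. Elavl4, which stabilizes transcripts with AU-rich elements, read 8.20, 7.86, 8.23, 7.86 and 8.06 in transgenic embryos and 7.98, 7.96, 7.84, 8.04 and 7.36 in controls. Transgenic embryos 1, 3 and 5 lay above all controls and the other 2 among them, with a difference of 0.21 ± 0.13 (limma adjusted p = 0.771; exact permutation p = 0.19, n = 5 per group) and 0.092 without control 5. Celf3, a splicing regulator of the CUG-binding family, read 8.78, 8.35, 8.82, 8.36 and 8.76 in transgenic embryos and 8.65, 8.71, 8.16, 8.66 and 7.30 in controls. Here too transgenic embryos 1, 3 and 5 were above all controls, and the other 2 below controls 1, 2 and 4. Its difference was 0.32 ± 0.24 (limma adjusted p = 0.833; exact permutation p = 0.365, n = 5 per group) and 0.068 without control 5.

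Elavl3, a relative of Elavl4 found in most neurons, read 9.17, 8.72, 9.22, 8.62 and 8.95 in transgenic embryos and 9.07, 9.16, 8.64, 8.92 and 7.86 in controls. Control 2, the highest control, was barely exceeded by transgenic embryos 1 and 3. Without control 5 the difference of 0.20 became -0.013 (95% interval -0.31 to 0.29). Elavl2 differed by 0.17 and by 0.071.

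Among the 6 measured synaptic vesicle and SNARE genes the median difference was 0.20, and 0.044 without control 5; 0 passed. Snap25, a plasma membrane SNARE, had the smallest p of all members. It read 7.49, 7.09, 7.52, 6.97 and 7.38 in transgenic embryos and 7.17, 7.05, 7.04, 7.12 and 6.14 in controls. Controls 1 to 4 lay between 7.04 and 7.17, and 3 transgenic embryos were above them and 1 below. The difference of Snap25 was 0.39 ± 0.19, a fold of 1.31 (95% interval -0.018 to 0.80; limma adjusted p = 0.678; exact permutation p = 0.103, n = 5 per group), and 0.20 ± 0.11 without control 5 (adjusted p = 0.811).

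The genes Syt1 and Syt4 of the synaptotagmin family were picked after their values were seen. Syt1, the calcium sensor for fast vesicle release, read 8.74, 7.77, 8.59, 7.86 and 8.46 in transgenic embryos and 8.48, 8.51, 7.97, 8.41 and 6.32 in controls. The gap of control 5 to the mean of the other controls, -2.02, a 4.06-fold lower level, was the widest of the 31 members. Syt4 read 8.45, 7.17, 8.30, 7.37 and 7.78 in transgenic embryos and 7.77, 7.91, 7.96, 7.78 and 6.74 in controls. Its transgenic values spanned 1.28, the widest such range of the 31 members, and enclosed those of controls 1 to 4. Syt1 differed by 0.34 and Syt4 by 0.18 between the groups, and without control 5 by -0.061 and -0.042.

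The vesicle proteins Syn1, which tethers vesicles to actin, and Syp, a membrane protein of synaptic vesicles, differed by 0.22 and 0.16, and without control 5 by 0.073 and 0.030. Stx1a, the syntaxin that pairs with Snap25, departed from the other members. It read 6.71, 6.57, 6.79, 6.19 and 6.55 in transgenic embryos and 6.52, 6.55, 6.50, 6.45 and 6.29 in controls. Transgenic embryos 1, 2, 3 and 5 lay above all controls and embryo 4 below every control. Embryo 5 exceeded control 2 only barely, at 6.553 against 6.550. The gap of control 5, -0.21, was the narrowest of the 31 members, and the group difference was 0.10 (limma adjusted p = 0.874), or 0.059 without control 5.

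The 3 genes of secretory granules and the endoplasmic reticulum had a median difference of 0.36, and 0.12 without control 5; 0 passed. Scg3, a granin that sorts cargo to granules, read 7.98, 7.36, 7.83, 7.54 and 7.87 in transgenic embryos and 7.66, 7.52, 7.15, 7.998 and 6.14 in controls. The highest array was control 4, and no transgenic embryo exceeded it. The difference of Scg3 was 0.43 ± 0.28 (limma adjusted p = 0.796; exact permutation p = 0.246, n = 5 per group), and 0.14 without control 5.

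Chga, which encodes the granule protein chromogranin A, read 7.13, 6.91, 7.14, 6.82 and 6.88 in transgenic embryos and 6.80, 7.03, 6.78, 6.98 and 6.48 in controls. Transgenic embryos 1 and 3 lay above all controls and the other 3 among controls 1 to 4, with a difference of 0.16 ± 0.10 (limma adjusted p = 0.79; exact permutation p = 0.19, n = 5 per group) and 0.080 without control 5. Rtn1, a reticulon that shapes the endoplasmic reticulum, differed by 0.36 and by 0.12.

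**Figure D2:**
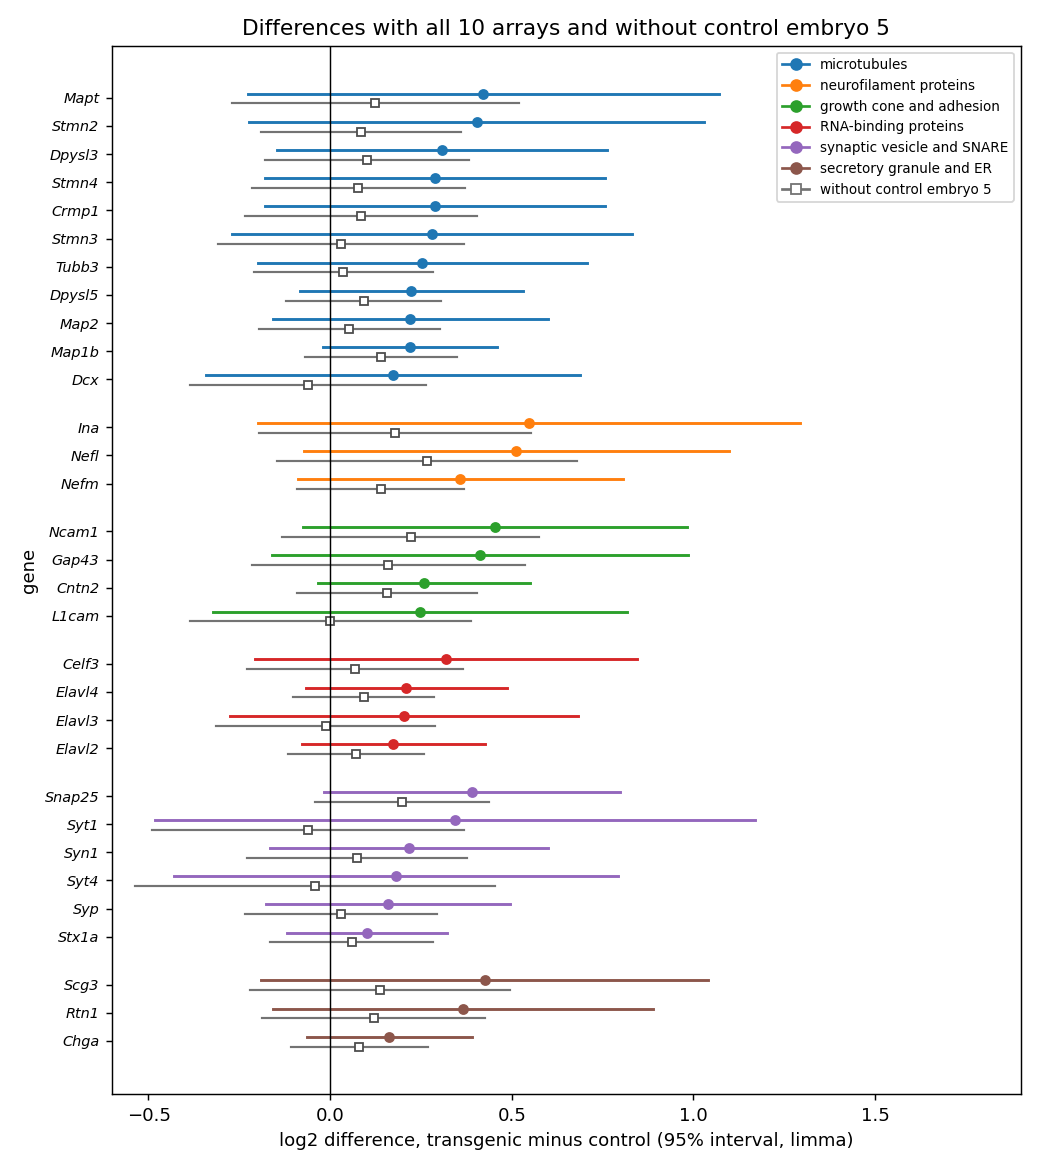
Log2 difference of each of the 31 genes, transgenic minus control, with its 95% interval from limma (x axis), grouped by role (colours); filled circles use all 10 arrays and open squares leave out control embryo 5. Every interval includes 0, and the median difference falls from 0.28 to 0.084 without that array.

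The size of the gap in control 5 differed between members. Relative to the mean of controls 1 to 4, 20 of 31 members were lower there by at least 1 log2 unit, against 0.908% of all genes, and the median gap was -1.09 over the members and -0.0059 over all genes. Besides Syt1 and Ina, the gap was wide in Stmn2 at -1.60, Mapt at -1.49 and Scg3 at -1.45. It was narrow in Stx1a at -0.21, Map1b at -0.39, Chga at -0.42, Cntn2 at -0.51 and Elavl2 at -0.51.

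Over the 10 arrays the members varied together from embryo to embryo. Between the 465 pairs of members the median Pearson r was 0.95, from 0.51 for Stx1a with Scg3 to 0.996 for Dpysl5 with Ncam1, and 348 pairs exceeded 0.9. Without control 5 the median r over 9 arrays was 0.85, and 139 pairs exceeded 0.9. After each group's mean was subtracted the median r was 0.95 with all arrays and 0.87 without control 5, so the shared order was present within the groups. These values describe genes that share arrays, and no p is given.

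**Figure D3:**
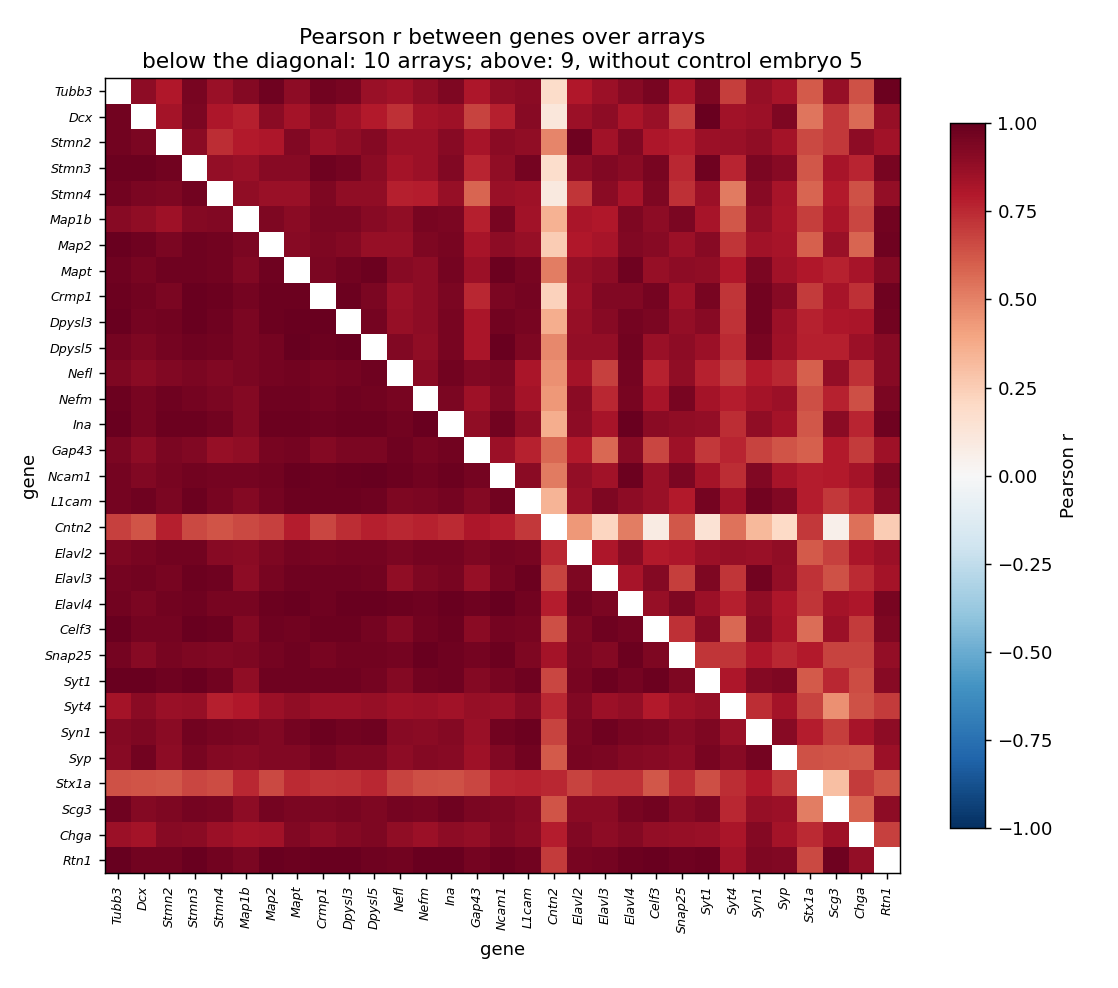
Pearson r between each pair of the 31 genes (both axes) over 10 arrays below the diagonal and over 9 arrays without control embryo 5 above it; the colour scale runs from -1 to 1. Most pairs are dark red in both parts, with medians of 0.95 and 0.85, and Cntn2 is the palest row and column above the diagonal.

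Each gene was also set against the mean of the other 30 members. Mapt and Dpysl3 followed it most closely, with r = 0.994 each, or 0.98 and 0.979 without control 5. Cntn2 and Stx1a followed it least, with r = 0.74 and 0.707. Without control 5 the value of Cntn2 was 0.378, while that of Stx1a was 0.723. Genes outside the list were ranked by their r to the mean of the members, with clone-named genes (Gm or Rik) skipped at both ends. The highest were Rundc3a, Kif5a, Celf4, Gng3, Agap2 and Psd2, between 0.990 and 0.996 with all arrays and between 0.965 and 0.989 without control 5. Kif5a encodes a neuronal kinesin heavy chain, Celf4 a relative of Celf3 and Gng3 a G-protein gamma subunit. The lowest values belonged to Tpi1, a glycolytic enzyme, at -0.988, Dlg1, a scaffold protein, at -0.984 and the mechanosensitive channel gene Piezo2 at -0.981, or -0.970, -0.945 and -0.935 without control 5. Of all 19938 genes, 588 had an r above 0.9 with the mean of the members, or 2.95%, a count that includes members, and 317 did so without control 5.

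Other genes of the same roles had a smaller median difference than the members. Of 96 measured genes in 5 further lists, 73 were higher and 23 lower in transgenic embryos, with a median log2 difference of 0.15, and 58 were higher and 38 lower without control 5, with a median of 0.035. None of them passed in limma over all genes with all arrays or without control 5, and by unadjusted p below 0.05 there were 11 higher and 1 lower, against 818 and 693 of the 19938 genes. Without control 5 there were 8 higher and 5 lower, against 782 and 579. By role, 20 of 27 cytoskeleton genes, 13 of 15 adhesion genes, 7 of 11 RNA-binding genes, 26 of 34 vesicle genes and 7 of 9 granule genes were higher. Without control 5 these counts were 17, 8, 6, 21 and 6 in the same order. Of all genes 48.1% were higher, or 47.9% without control 5. The 4 with the smallest p were Chl1, Sv2c, Cntn1 and Syt13. Chl1, a close homologue of L1cam, read 7.70, 7.10, 7.43, 6.40 and 7.33 in transgenic embryos and 6.44, 6.37, 5.42, 6.61 and 4.46 in controls, with transgenic embryo 4 alone inside the control range. Its difference was 1.33 ± 0.38 (limma adjusted p = 0.358; exact permutation p = 0.0238, n = 5 per group) and 0.98 without control 5 (adjusted p = 0.293). The vesicle protein gene Sv2c differed by 0.27 (adjusted p = 0.398), the contactin gene Cntn1 by 0.39 (adjusted p = 0.457) and Syt13 by 0.62 (adjusted p = 0.527). Without control 5 these differences were 0.24, 0.31 and 0.49.

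Regulators of the neuronal programme did not pass with all arrays or without control 5. Of 8 genes of the REST repressor complex 3 were higher and 5 lower, with a median of -0.038, and -0.042 without control 5. Rest itself read 6.63, 7.12, 6.74, 7.01 and 7.01 in transgenic embryos and 6.73, 6.76, 6.93, 6.98 and 7.62 in controls. Its highest array was thus control 5, the lowest for the members, and its group difference of -0.10 (limma adjusted p = 0.927) turned to 0.054 without that array (adjusted p = 0.974). Of 18 proneural and neuronal transcription factor genes 14 were higher and 4 lower, with a median of 0.14, or 11 and 7, with a median of 0.12, without control 5. By unadjusted p below 0.05, 6 were higher and 2 lower, or 5 and 2 without control 5. Of all genes 7.58% lay below 0.05 in either direction, or 6.83% without control 5. The smallest adjusted p-values were those of Neurod6, at -0.77 (limma adjusted p = 0.0867), and Nhlh2, at 0.54 (adjusted p = 0.197). Both groups of 5 were fully separated in each, as in 1.6% of all genes. Without control 5 the differences were -0.77 (adjusted p = 0.0902) and 0.41 (adjusted p = 0.0594), and without control 4 Neurod6 passed the threshold (adjusted p = 0.0459).

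Mesenchyme, erythroid and endothelial markers ran opposite to the members over the arrays. Of the 12 mesenchyme genes, all were higher in control 5 than the mean of controls 1 to 4, and the list mean was 7.92 there against 6.19 to 6.98 in the other controls and 6.39 to 7.07 in transgenic embryos. The collagen gene Col1a1 read 10.34 in control 5 and between 7.68 and 9.03 elsewhere. The 7 measured erythroid genes were also all higher in control 5, with a list mean of 7.99 against 6.75 to 7.43 in the other controls and 6.72 to 7.61 in transgenic embryos. The 8 endothelial genes were higher there as well, with a list mean of 6.81 against 6.28 to 6.66 in controls 1 to 4. Over the 10 arrays the list means had r = -0.852 for mesenchyme, -0.863 for erythroid and -0.838 for endothelial genes with the mean of the members. Without control 5 these were -0.498, -0.795 and -0.703. The group difference of the list means was -0.076, -0.18 and -0.043 in the same order. Without control 5 it was 0.21, -0.017 and 0.035, so the mesenchyme and endothelial means were then higher in transgenic embryos, like the members. The mean of 6 microglia genes had a weaker r of -0.403, or -0.390 without control 5. All 6 were higher in the transgenic group in both fits. The part of these cells in the member values was not tested.

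Division markers also ran opposite to the members. The mean of 11 mitosis genes was 8.04, 8.52, 8.17, 8.55 and 8.39 in transgenic embryos and 8.49, 8.49, 8.54, 8.45 and 8.64 in controls. Transgenic embryos 1 and 3, the highest for the members, were thus the lowest for mitosis genes, and control 5 was the highest. The r with the mean of the members was -0.763, and -0.894 without control 5. All 11 had lower means in transgenic embryos, also without control 5, and 0 passed the threshold in either fit. By unadjusted limma p below 0.05 there were 3 of 11, or 2 without control 5, against 7.58% and 6.83% of all genes. The mean of 12 radial glia genes, which mark neural stem cells, varied little, from 8.59 to 8.74 in transgenic and 8.66 to 8.76 in control embryos. It was lowest in transgenic embryos 1 and 3, and its r with the mean of the members was -0.124, or -0.685 without control 5. Single genes moved both ways, 5 higher and 7 lower in the transgenic group, or 4 and 8 without control 5. By unadjusted limma p below 0.05 there were 1 higher and 1 lower in both fits, Pax6 at 0.22 and Ddah1 at -0.47. Without control 5 Ddah1 differed by -0.58 (limma adjusted p = 0.0594), and 0 passed the threshold in either fit.

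Regional markers differed as well. The mean of 10 thalamus genes lay between 6.54 and 7.53 in transgenic embryos and between 5.63 and 7.01 in controls. All 10 genes were higher in the transgenic group, also without control 5, and 0 passed the threshold in either fit. By unadjusted limma p below 0.05 there were 7 of 10 in both fits, against 7.58% and 6.83% of all genes. Dbx1 and Barhl2 of that list had no overlap between the groups, as had 1.6% of all genes. Without control 4, however, Olig3 of that list passed (limma adjusted p = 0.0107, against 0.185 with all arrays). The thalamic list mean was 7.38 and 7.53 in transgenic embryos 1 and 3, and 7.43 in transgenic embryo 2, which was low for the members. Its r with the mean of the members was 0.563, or 0.277 without control 5. The mean of 7 telencephalon genes lay between 6.56 and 6.92 in transgenic embryos, between 6.68 and 7.55 in controls 1 to 4 and at 6.24 in control 5. All 7 genes were lower in the transgenic group, also without control 5, with 0 past the threshold in either fit. By unadjusted limma p below 0.05 there were 2 of 7, or 4 without control 5. Without control 4 Eomes of that list passed (limma adjusted p = 0.0325, against 0.196 with all arrays). The mean of 10 midbrain and hypothalamus genes followed the members most closely of the 10 marker lists in the same direction, with r = 0.876, or 0.684 without control 5. It lay between 5.35 and 5.63 in transgenic embryos, between 5.22 and 5.46 in controls 1 to 4 and at 5.01 in control 5, a group difference of 0.23, or 0.16 without control 5, with 0 genes past the threshold in either fit. Of these 10 genes, 6 had a level below the median of all genes, so few genes moved the mean. Sim1 and Otx2 had the widest differences, 1.29 and 0.87, while Nkx2-1 differed by -0.25. Otx2 had no overlap between the groups, as had 1.6% of all genes. By unadjusted limma p below 0.05 there were 2 of 10, or 1 without control 5, against 7.58% and 6.83% of all genes. In all, 7 were higher and 3 lower in the transgenic group, or 6 and 4 without control 5. Microglia genes had a mean of 4.98 to 5.39 and markers of later glia one of 4.39 to 4.73 over all arrays; the table gives no background level to say whether these are detected. The part of regional tissue in the member values was not tested.

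**Figure D4:**
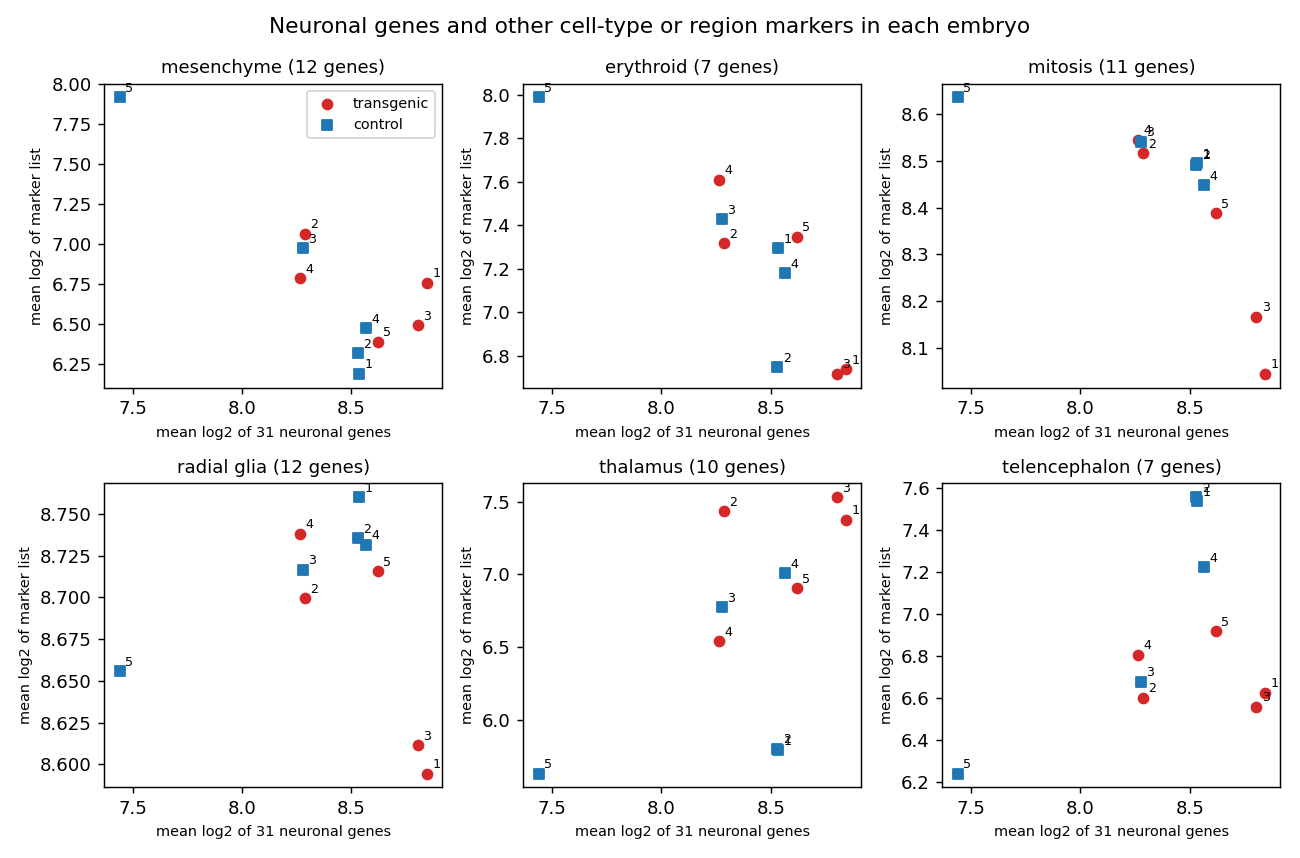
Mean log2 intensity of the 31 neuronal genes (x axis) against the mean of 6 marker lists (y axis, 1 panel each; scales differ between panels) in every embryo; circles are transgenic and squares control embryos, with the embryo's number beside each. Control embryo 5 lies at the far left of every panel, highest for mesenchyme, erythroid and mitosis genes, and transgenic embryos 1 and 3 lie at the right, lowest for mitosis genes.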

How the data were processed

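RNA from 10 forebrains was labelled with biotin for whole-transcript sense targets and hybridized, per the labels' protocols. The submitters' processing notes name Affymetrix Expression Console. The authors deposited log2 intensities for 35556 probe sets; algorithm and version are not given in the sources used here. The log2 scale and the normalization between arrays are read from the values, with medians over all probe sets of 5.36 to 5.39. No pseudocount or further normalization was applied. The platform's gene table named 1 gene for 21789 probe sets, several for 1621 and none for 12146; the brightest probe set represented each gene.

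Groups were taken from titles and compared with limma 3.58.1 in R 4.3.3 (group only, empirical Bayes, two-sided, Benjamini-Hochberg over all genes). The fit was checked on simulated data in which genes varied independently and no array stood apart. That check therefore does not cover the shared variation and the outlying array seen here. Replicate numbers were not used as pairs: same-numbered embryos' deviations correlated above 0.1 in 1 of 5 pairs. Nothing in the labels says more of how embryos were sampled, so p-values measure the spread between these arrays. Exact permutation tests used every assignment of arrays to groups.

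The members and gene lists were chosen with earlier results of these data known. Every array's values are given for the member with the smallest p and that with the largest difference in each role, and for the 3 largest and 3 smallest differences without the array least like the others. Outside the list, Foxo3 and up to 6 further role genes past the threshold, or else the 4 with the smallest p, were named, with the 6 genes most like the members and the 3 least like them. Syt1, Syt4, Stx1a and the regulators and markers named were chosen after their values were seen. Each array was left out in turn, and the fit was repeated with a replicate block, with weighted arrays, with a variance trend and robust moderation, after quantile normalization or centring on medians, without genes below the 40th percentile, with probe sets of a gene averaged, over every row of the table and at a threshold of 0.1. A planned comparison of protein sequences within families was not made.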

Additional observations from a re-analysis of the deposited data

Results flagged for a closer look

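Control embryo 5 was far below the other 4 controls for 10 of 31 members, by the gap to the next control as a share of the group's range (Dixon's ratio, critical value 0.71 for 5 samples). The ratio was 0.725 for Tubb3, 0.727 for Dcx, 0.838 for Stmn2, 0.738 for Mapt, 0.855 for Nefm, 0.734 for Ina, 0.737 for Elavl2, 0.875 for Snap25, 0.754 for Syt1 and 0.84 for Syt4, and 0.745 for the mean of the members, at 7.44 in that embryo. Chance gives such a ratio in about 5% of groups; over all genes it was 7.03% in the control group and 4.68% in the transgenic group, where no member reached it. The members vary together, so these are not separate events.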

How the results depend on the processing

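No member and no gene of the 5 further role lists passed under any of the 18 alternative fits or at a threshold of 0.1; the smallest adjusted p of a member was 0.456, in limma without transgenic embryo 4. Of the regulator and marker genes, Neurod6 lay below 0.1 with all arrays (adjusted p = 0.0867), and without control embryo 4 Neurod6, Olig3 and Eomes passed 0.05 (0.0459, 0.0107 and 0.0325). No other gene of these lists passed 0.05 in any fit. The median difference of the members lay between 0.19 with array weights and 0.29 with quantile normalization, and between 0.084 without control embryo 5 and 0.36 without control embryo 2 when 1 array was left out. Of 558 member values under an alternative, 4 changed sign, all without control embryo 5: Dcx at -0.061, Elavl3 at -0.013, Syt1 at -0.061 and Syt4 at -0.042. Leaving out 1 array gave up to 0.29, 0.31, 0.49 and 0.34 for these genes. With the replicate block the median difference of the members was 0.28 and 0 passed, while 2 of all genes passed against 21 without it. The labels name no pairing. Same-numbered embryos did not correlate best with each other in any of 5 pairs, but so few pairs cannot tell whether the numbers pair embryos. Without dim genes 7 of the 96 further role genes could not be tested. The number of arrays limits the precision: intervals reach 0.68 above 0 even without control embryo 5.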
